A study of Mus musculus with 12 samples.

Results

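The cerebellar cortex of mice on a ketogenic diet (KD) was compared with that of mice with free access to food (ad libitum, AL). The 8 libraries compared, 4 from KD mice and 4 from AL mice, were chosen by the diet given in the sample labels and make up 8 of the 12 libraries of the series. The other 4 libraries come from mice on dietary restriction (DR), whose values are given beside those of KD for the same genes. All 12 mice were wild-type males of an F1 hybrid between C57BL6J and FVB, and all carry a time of 12 weeks in their labels. AL and DR mice, for which 12 weeks was the age, ate AIN93G pellets, which DR mice received in amounts reduced stepwise, and were dissected early in the dark period, the DR mice without their last meal. What the KD pellets contained, when KD began, whether 12 weeks is the age or the time on the diet for KD mice, and at what time of day they were dissected are not given in the sources used here. The tissue was a piece of cerebellar cortex with several folia and without the cerebellar nuclei, and each library is treated as 1 mouse. No label says which mice shared a litter, cage or day.

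A ketogenic diet holds much fat and little carbohydrate, so that the liver turns fatty acids into the ketone bodies acetoacetate and beta-hydroxybutyrate. Brain takes these up through monocarboxylate transporters and oxidizes them in mitochondria in place of part of its glucose, and the diet is known in the clinic as a treatment of epilepsy. Slc16a1 and Slc16a7 encode the transporters MCT1 of endothelium and glia and MCT2 of neurons, and Bdh1, Oxct1 and Acat1 encode the enzymes that break ketone bodies down.

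KD libraries held 35376210 to 38961800 counts (median 37671175) and AL libraries 31712084 to 40798644 (median 37042341). Diets did not differ in depth beyond the spread between mice (exact permutation p = 0.8, two-sided, 70 divisions of the 8 mice, smallest p possible 0.0286). The share of counts on mitochondrial genes had a median of 3.99% on KD and 3.97% on AL (exact permutation p = 0.857). Levels are given as CPM, the count of a gene relative to the TMM-scaled size of its library, and lie on 1 scale for all 12 mice. The tissue label held for all mice: all 15 Purkinje cell markers and all 15 granule cell markers examined were expressed in KD and AL libraries. Pcp2, made in Purkinje cells and in bipolar cells of the retina, was at 307 ± 18.8 CPM on KD and 297 ± 14.3 CPM on AL (SD, n = 4 each), although 51.5% of its exon length is shared with Pet100, whose reads the counting could not tell apart. Gabra6, a GABA-A receptor subunit of granule cells, was at 891 ± 37.4 CPM on KD and 856 ± 38.5 CPM on AL (SD, n = 4 each).

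Some mice of the same diet stood apart from each other. KD replicate 4 held 150.1 CPM of Rn7sk, the 7SK small nuclear RNA, against 2.30 to 5.25 CPM in the other KD mice and 2.81 to 5.42 CPM in AL mice. The same library held 1494 CPM of the ribosomal RNA gene CT010467.1, against 107 to 202 CPM in the other KD mice. Col6a3, a collagen VI chain, was at 19.6 and 15 CPM in KD replicates 1 and 3 and at 2.54 and 4.94 CPM in KD replicates 2 and 4. In AL mice Col6a3 was at 0.961, 0.800, 0.890 and 2.88 CPM, and in DR mice at 17.6, 1.06, 12.1 and 1.02 CPM. Transcripts that liver makes in bulk were listed at low levels in some mice of each diet: Alb, serum albumin, was at 4.88, 7.05, 0 and 5.48 CPM in KD replicates 1 to 4 and at 0.0246, 0, 10.2 and 0 CPM in AL replicates 1 to 4. Mid1, an X-linked ubiquitin ligase gene, was at 143 and 152 CPM in KD replicates 1 and 3 and at 131.4 CPM in AL replicate 2, against 26.4 to 60.1 CPM in the other KD and AL mice. None of these genes separated the diets, since for each of them the ranges of KD and AL mice overlapped. The kit did not mark the strand of RNA, and more than 10% of the exon length overlaps another gene for CT010467.1, Mid1, Oxct1, Bdh1, Pkm, Txnip, Alas2, Dbp, Hmgcs1, Hspa1a, Adora1, Rtp4 and H2-Q4, so their values are uncertain.

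The first principal component of log2 CPM held 21.7% of the variance of the 8 libraries and did not separate KD from AL (exact permutation p = 0.571). Its scores ran from -19.7 to 13.1 for KD and from -17.8 to 24.0 for AL, and the genes that weighed most in it were the liver transcripts Alb, Apob, Pck1 and Fgb. The second held 16.4% (exact permutation p = 0.114) and the third 15.1% (exact permutation p = 0.886). With 1 library left out, the diets did not overlap on the second component without AL replicate 4, nor on the third without AL replicate 2 (exact permutation p = 0.0286 each, the smallest that 3 against 4 mice can give, not adjusted for the components and libraries tried). When only genes averaging 10 CPM or more entered, the first component held 26.8% and again did not separate the diets (exact permutation p = 0.4).

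None of 19036 genes tested in edgeR by quasi-likelihood (p-values adjusted after Benjamini and Hochberg) passed an adjusted p of 0.05 between KD and AL, and the lowest adjusted p was 0.126, reached by Map3k6. At an unadjusted p under 0.05 stood 933 genes (4.9%), of which 463 (2.43%) were higher and 470 (2.47%) lower on KD. DESeq2 called 10 genes on the same counts (728 at an unadjusted p under 0.05), 4 higher (Slc16a1, Stra6 and Cxcl12 among them) and 6 lower (Map3k6, Ahnak, Klhl2, Klf15, Hbb-bt and Jcad) on KD, and limma-voom called 0 (920 at an unadjusted p under 0.05). With 1 AL library left out edgeR called 6 genes without AL replicate 1, 2 without AL replicate 3 and 5 without AL replicate 4, and 0 without any of the other libraries. In the same test, with the same AL mice, DR against AL gave 593 called genes of 19052 (3.11%), 260 higher and 333 lower on DR. KD against DR gave 966 called genes of 19087 (5.06%), 470 higher and 496 lower on KD. The unadjusted p-values of KD against AL were spread evenly from 0 to 1, while those of both comparisons with DR piled up at low values. The 3 comparisons share libraries in pairs and are not independent.

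**Figure D1:**
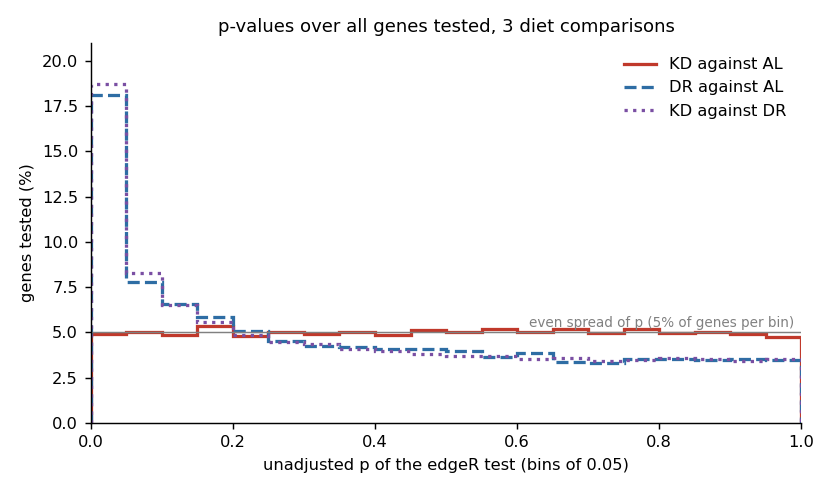
Share of genes tested (vertical axis, percent) in each bin of 0.05 of the unadjusted p (horizontal axis) for KD against AL (red), DR against AL (blue, dashed) and KD against DR (purple, dotted), each from 4 against 4 mice. The lowest bin holds 4.9% of genes for KD against AL, 18.1% for DR against AL and 18.7% for KD against DR; the grey line marks 5%.

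The precision of the KD and AL comparison varied with the level of a gene. The 95% confidence interval of a log2 fold change reached a median of 0.121 to either side for genes of 10 to 100 CPM, 0.0876 above 100 CPM, 0.305 from 1 to 10 CPM and 0.658 below 1 CPM. These widths are unadjusted and describe the typical gene of each level. Of 10055 genes that averaged 10 CPM or more, 139 (1.38%) had an absolute log2 fold change of at least 0.2 and 15 (0.149%) of at least 0.5. Among the 15 were Rn7sk, CT010467.1, Lars2, Gm26917, Mid1 and Mid1-ps1, for each of which 1 KD or AL mouse stood apart within its diet. Mice of the same diet had a median SD of log2 CPM over the 10055 genes of 0.07 on both diets. Every KD mouse stood above every AL mouse for 268 genes (1.41% of those tested) and below for 295 genes (1.55%), 563 (2.96%) in all.

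Slc16a1 (MCT1, the endothelial and glial ketone and lactate transporter; chromosome 3 of GRCm38.p6, 104638668 to 104658462, plus strand) had the third lowest p of all genes tested. It was at 36.4, 34.7, 37.2 and 37.8 CPM on KD and at 32.1, 29.5, 29.8 and 28.8 CPM on AL, without overlap. Its log2 fold change was 0.28 (standard error 0.05, adjusted p = 0.261 by edgeR, exact permutation p = 0.0286 for its CPM, the smallest that 4 against 4 mice can give). In DR mice it was at 34.1, 37.4, 28.5 and 27.7 CPM, a range that reached from below the lowest AL mouse to the upper KD mice, and neither comparison with DR called it. In bulk tissue, fewer cells of a type and less RNA per cell cannot be told apart, for this gene and for all others below.

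The genes that use ketone bodies differed little between the diets. More than 10% of the exon length of Oxct1 and of Bdh1 overlaps another gene, so their values are uncertain. Oxct1, the enzyme that activates acetoacetate, was at 229 ± 4.46 CPM on KD and 232 ± 10.6 CPM on AL (SD, n = 4 each), so its log2 fold change was -0.02 (95% interval -0.10 to 0.06). Bdh1, which interconverts the ketone bodies, was at 45.2 to 46.6 CPM on KD and 42.8 to 47.0 CPM on AL (log2 fold change 0.03), and Acat1, the last step, at 57.7 to 61.6 and 54.5 to 60.8 CPM (log2 fold change 0.04). Slc16a7, the neuronal transporter MCT2, had a log2 fold change of 0.00 with a 95% interval of -0.12 to 0.12. Exact permutation p-values of these genes were 0.543 for Oxct1, 0.4 for Bdh1, 0.4 for Acat1 and 0.943 for Slc16a7. Of the 14 members tested in the list of ketone synthesis, use and transport, 2 (14.3%) were higher and 0 lower at an unadjusted p under 0.05, against 2.43% and 2.47% of all genes. The median log2 fold change of the list was 0.02, against 0.00 over all genes.

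**Figure D2:**
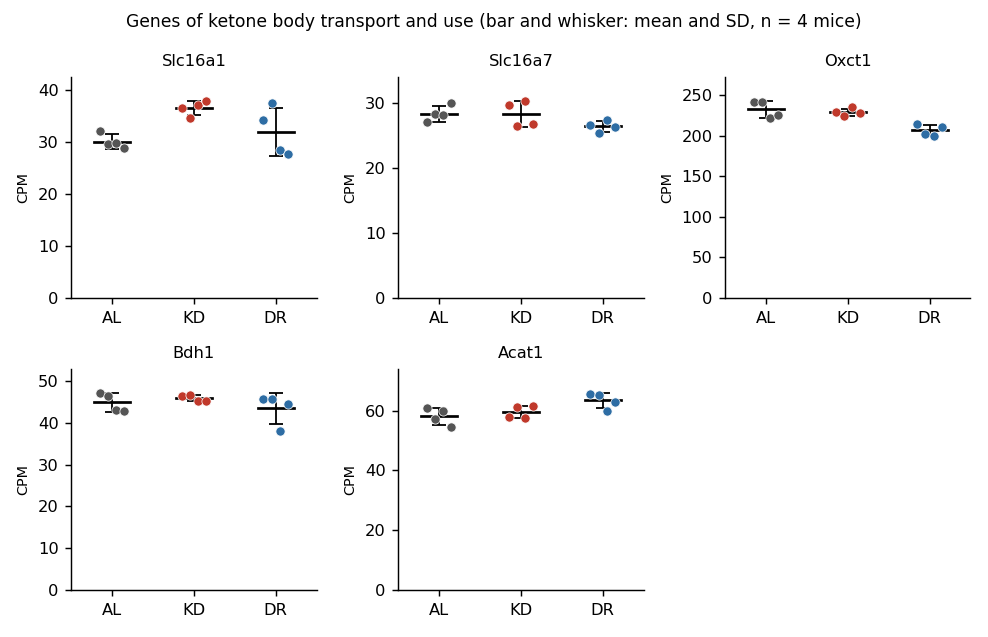
CPM of 5 genes of ketone body transport (Slc16a1, Slc16a7) and use (Oxct1, Bdh1, Acat1) in AL (grey), KD (red) and DR (blue) mice; each point is 1 mouse, the bar and whisker are the mean and SD of 4 mice, and axes start at 0. The 4 KD mice of Slc16a1 (34.7 to 37.8 CPM) lie above the 4 AL mice (28.8 to 32.1 CPM), while the ranges of the other 4 genes overlap.

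Genes of fat use, which a high-fat diet is known to raise in liver or muscle, overlapped between diets for the members named here. None of 33 genes of fatty acid oxidation reached an unadjusted p under 0.05 in either direction, and their median log2 fold change was 0.00. Cpt1a, the carnitine transferase that admits fatty acids to mitochondria, was at 29.0 to 31.2 CPM on KD and 28.6 to 30.8 CPM on AL (log2 fold change 0.03, exact permutation p = 0.343). Angptl4, a lipase inhibitor and PPAR target, was at 2.23, 2.88, 3.20 and 2.29 CPM on KD and at 1.65, 2.71, 2.78 and 1.68 CPM on AL, with overlap. On DR, at 5.64, 5.52, 6.50 and 6.13 CPM, all mice lay above those of both other diets (KD against DR log2 fold change -1.17, adjusted p = 0.00012 by edgeR). Among 21 PPAR target genes tested, 1 was higher and 3 were lower (Plin4, Txnip and Pdk4) at an unadjusted p under 0.05 (4.76% and 14.3%, against 2.43% and 2.47% of all genes). Plin4 and Pdk4 are also members of the glucocorticoid-responsive list below, so the counts of these lists are not independent. Pdk4, the kinase that switches pyruvate dehydrogenase off, was at 10.6, 8.08, 9 and 8.01 CPM on KD and at 9.69, 16.6, 11.6 and 8.43 CPM on AL, with overlap (log2 fold change -0.38, adjusted p = 0.97 by edgeR, exact permutation p = 0.2), and without AL replicate 2 its log2 fold change was -0.15 (unadjusted p = 0.22). Without AL replicate 3 that of Plin4 was -0.29 (unadjusted p = 0.0608), against -0.46 with all libraries.

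Of 25 genes of glucose uptake, glycolysis and lactate, 1 (4%) was higher and 1 (4%) lower at an unadjusted p under 0.05. These shares lie near the 2.43% and 2.47% of all genes. Slc2a1 (GLUT1, the glucose transporter of the blood-brain barrier) was at 146.4, 133, 120.0 and 116.5 CPM on KD and at 148, 191, 175 and 136.5 CPM on AL. KD replicate 1 exceeded AL replicate 4, the other KD mice lay below all AL mice, and the log2 fold change was -0.33 (standard error 0.09, adjusted p = 0.863 by edgeR, exact permutation p = 0.0571). Slc2a3 (GLUT3, the neuronal transporter) was at 178.5 to 190.8 CPM on KD and 181.9 to 192.8 CPM on AL, a log2 fold change of -0.01. Ldha, a lactate dehydrogenase subunit, had a log2 fold change of 0.12 (unadjusted p = 0.048) and overlapped between diets. Slc2a1 and Ldha were the 2 genes of this list at an unadjusted p under 0.05. The 4 most abundant of the list per kilobase (Aldoc, Aldoa, Pkm and Gapdh) had log2 fold changes of 0.01 to 0.05. The citric acid cycle (21 genes, median 0.03) and glycogen metabolism (20 genes, median 0.00) had 1 and 2 members higher and 0 lower at an unadjusted p under 0.05, where 2.43% of all genes were higher and 2.47% lower.

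The glucocorticoid-responsive genes held the largest share of members lower on KD at an unadjusted p under 0.05 after the 7 erythrocyte genes (71.4%). The lists were chosen with earlier results of these data known, so this rank is no test. Glucocorticoids, mainly corticosterone in mice, bind the glucocorticoid receptor, which moves to the nucleus and switches on a set of genes shared by many tissues, among them its own brake Fkbp5. None of the 34 members tested passed the adjusted test, 19 (55.9%) were lower and 0 higher at an unadjusted p under 0.05 (2.47% and 2.43% of all genes), and 29 had a negative fold change. Their median log2 fold change was -0.20, against 0.00 over all genes, and for 4 members every KD mouse lay below every AL mouse, as for 1.55% of all genes. Against DR, 24 members were lower and 2 higher on KD by edgeR's adjusted test (background 2.6% and 2.46%), with a median of -0.48. DR against AL had 7 members higher and 1 lower (background 1.36% and 1.75%), with a median of 0.20.

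Map3k6, a stress-activated kinase gene induced by glucocorticoids (ENSMUSG00000028862.6, chromosome 4 of GRCm38.p6, 133240818 to 133252929, plus strand), had the second lowest p of all genes. It was at 5.09, 4.62, 3.67 and 4.04 CPM on KD and at 8.33, 9.19, 8.52 and 5.80 CPM on AL, without overlap (log2 fold change -0.88, standard error 0.14, adjusted p = 0.126 by edgeR). AL replicate 4 was the AL mouse nearest to KD. Fkbp5, the co-chaperone that lowers the receptor's affinity for hormone, was at 14.4, 13.4, 10.7 and 9.86 CPM on KD, at 20.6, 24.5, 24.4 and 14.5 CPM on AL and at 31.2, 31.4, 43.2 and 28.9 CPM on DR. The 3 diets did not overlap, although KD replicate 1 and AL replicate 4 were nearly equal. Fkbp5 had a log2 fold change of -0.80 on KD against AL (standard error 0.15, adjusted p = 0.261 by edgeR, exact permutation p = 0.0286 for its CPM), of 0.67 on DR against AL (adjusted p = 0.0207 by edgeR) and of -1.48 on KD against DR (adjusted p = 1.5e-05 by edgeR).

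Zbtb16, a zinc finger repressor, was at 50.6, 38.5, 23.9 and 25.7 CPM on KD and at 57.5, 81.4, 73.5 and 44.9 CPM on AL, where KD replicate 1 exceeded AL replicate 4 (log2 fold change -0.89, unadjusted p = 0.00053). Tsc22d3, which encodes the glucocorticoid-induced leucine zipper, was at 115, 96.3, 97.4 and 82.4 CPM on KD and at 129.5, 173, 134 and 111 CPM on AL (log2 fold change -0.48, adjusted p = 0.564 by edgeR). Here too KD replicate 1 and AL replicate 4 overlapped. Klf15, a regulator of amino acid and lipid use, was at 15 to 19.7 CPM on KD and 20.2 to 27.0 CPM on AL without overlap (log2 fold change -0.44, adjusted p = 0.34 by edgeR). Mertk, a receptor for engulfing dying cells, had a log2 fold change of -0.60, Cdkn1a, the cell cycle inhibitor p21, of -0.47, and Sgk1, a kinase that acts on ion channels, of -0.29, each with overlap. The receptor genes differed less: Nr3c1, the glucocorticoid receptor, was at 93.0 to 103.1 CPM on KD and 88.2 to 100.2 CPM on AL (log2 fold change 0.05), and Nr3c2, the mineralocorticoid receptor, had a log2 fold change of 0.09.

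Averaged over the 34 genes, the level against the mean of the AL mice was -0.13, -0.24, -0.29 and -0.36 on the log2 scale in KD replicates 1 to 4. It was -0.03, 0.20, 0.05 and -0.22 in AL replicates 1 to 4 and 0.15, 0.19, 0.34 and 0.21 in DR replicates 1 to 4. AL replicate 4 thus lay among the KD mice, and AL replicate 2 among the DR mice. With each library left out in turn, 13 to 22 members were lower at an unadjusted p under 0.05, fewest without AL replicate 2 and most without AL replicate 4. Without AL replicate 4, edgeR called Map3k6 (adjusted p = 0.00512), Fkbp5 (adjusted p = 0.00534), Cdkn1a (adjusted p = 0.0274) and Mertk (adjusted p = 0.0336). Without AL replicate 2, the log2 fold change of Nfkbia, an inhibitor of NF-kappa B, was -0.13 (unadjusted p = 0.192), against -0.30 with all libraries. Glucocorticoids follow a daily rhythm and handling stress, and the time of dissection of KD mice, the handling of each mouse and hormone levels are not given in the sources used here, so their part in these values was not tested.

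**Figure D3:**
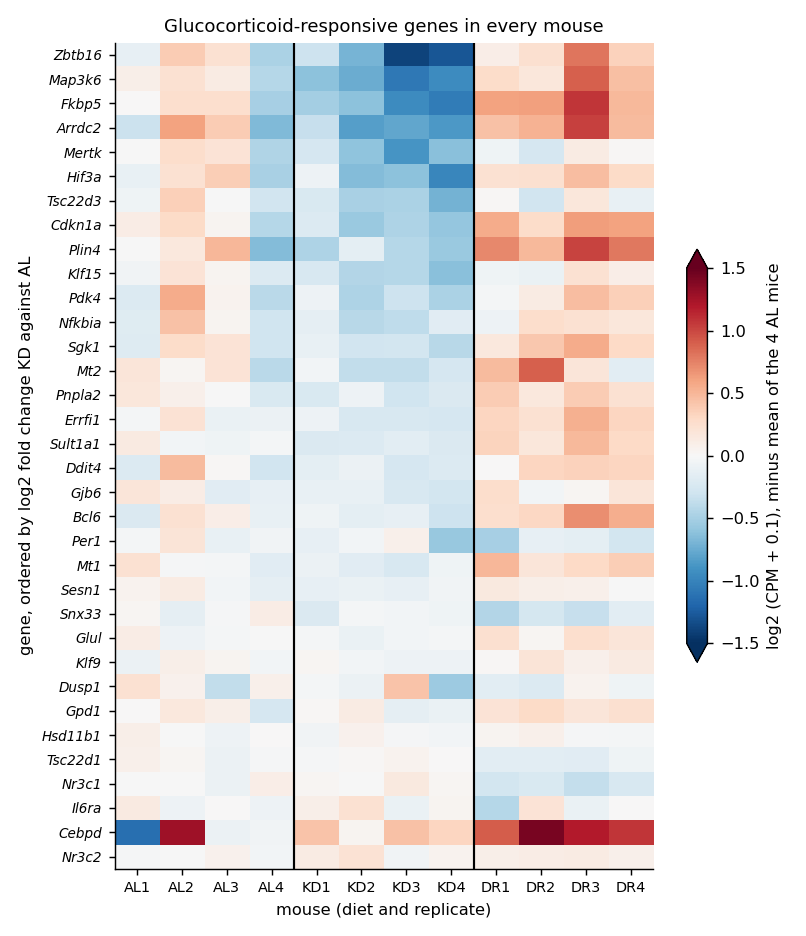
Level of the 34 glucocorticoid-responsive genes tested in every mouse, as log2 of CPM plus 0.1 minus the mean of the 4 AL mice (colour scale cut at 1.5 to either side, red higher, blue lower); genes are ordered from the lowest to the highest log2 fold change of KD against AL. The upper rows (Zbtb16, Map3k6, Fkbp5) are blue in all KD mice and in AL replicate 4, and mostly red in DR mice.

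The glucocorticoid receptor binds DNA as a dimer on an inverted repeat with a gap of 3 bases, so promoters of the list were searched for the letters GNACA followed, after any 3 bases, by TGTNC, which together read the same on both strands (N is any base). RefSeq promoters of build GRCm38.p6, running from 250 bases before to 50 bases after a start site, were matched by symbol for 30 of the 34 genes. The letters occurred in 3 of these 30 genes (10%), against 145 of 27025 genes (0.537%) in the whole table. By promoter, since a gene can have several, they occurred in 3 of 46 (6.52%) against 156 of 32851 (0.475%). Because the list was compiled as genes that respond to glucocorticoids, its share of matches says nothing about diet. All 3 genes were among the 19 lower at an unadjusted p under 0.05, but so were 55.9% of the members tested. The stretches that hold the letters are shown, with capitals for the match and 30 bases on either side.
Map3k6 (chr4:133240607-133240679, plus strand): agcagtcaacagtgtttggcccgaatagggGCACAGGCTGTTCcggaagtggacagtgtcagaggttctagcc
Sgk1 (chr10:21993672-21993744, plus strand): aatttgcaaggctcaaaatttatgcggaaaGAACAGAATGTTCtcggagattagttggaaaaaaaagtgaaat
Mt1 (chr8:94178965-94179037, plus strand): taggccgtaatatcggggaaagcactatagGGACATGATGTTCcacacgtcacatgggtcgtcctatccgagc
The match begins 181 bases before the start site in Map3k6, 188 before that of a shorter Sgk1 transcript, and 94 before that of Mt1, which encodes metallothionein 1. Mt1 was at 249, 236, 224 and 253 CPM on KD and at 309.7, 261, 260.3 and 235 CPM on AL, with overlap (log2 fold change -0.15, unadjusted p = 0.045), and without AL replicate 1 its log2 fold change was -0.07 (unadjusted p = 0.223). A match says only that these letters stand in the promoter, and no binding was measured. The other matched genes, Fkbp5 and Tsc22d3 among them, do not hold these letters in this window.

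Most transcripts of red blood cells tested had lower values on KD, none past the adjusted test. Haemoglobin mRNA in dissected brain comes mainly from blood left in vessels. Of 7 erythrocyte genes tested, 0 passed the adjusted test and 5 (71.4%) were lower at an unadjusted p under 0.05 (2.47% of all genes), with a median log2 fold change of -0.45. The fold change was negative for 6 of them and positive for 1, which did not reach that threshold. With all 12 libraries in 1 fit, 3 were lower at an unadjusted p under 0.05, and the unadjusted p of Hbb-bs was 0.0388 in place of 0.000125. Hbb-bs, a beta globin, was at 59.4, 62.9, 66.1 and 56.2 CPM on KD and at 69.8, 92.8, 75.1 and 97.6 CPM on AL, without overlap (log2 fold change -0.45, standard error 0.09, adjusted p = 0.316 by edgeR). Hba-a1, an alpha globin, was at 83.4, 96.7, 93.9 and 86.2 CPM on KD and at 97.8, 139, 116 and 151 CPM on AL (log2 fold change -0.48, adjusted p = 0.348 by edgeR), again without overlap. Hbb-bt and Hba-a2 had log2 fold changes of -0.47 each with overlap between diets, and Alas2, the first enzyme of haem synthesis in red cells, of -0.45. Near-identical globin copies share reads, so their individual values are uncertain. Slc4a1, the red cell anion exchanger, differed less, with a log2 fold change of -0.13.

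Summed over the list, erythrocyte genes stood at 249, 279, 282 and 255 CPM on KD, at 286, 397, 337 and 434 CPM on AL, and at 204, 504.5, 247 and 186 CPM on DR. In this sum, to which Hba-a1 gave 34.3%, KD mice lay close together below all AL mice, while DR mice spanned both ranges with replicate 2 the highest of all. Averaged over the 7 genes on the log2 scale, AL replicate 1, at -0.29 against the AL mean, lay among the KD mice (-0.37 to -0.26). Without AL replicate 1, edgeR called Hba-a1, Hba-a2, Hbb-bs and Hbb-bt, with log2 fold changes of -0.59 to -0.53. The summed pericyte and smooth muscle markers also lay lower in every KD mouse (203.3 to 214.6 CPM) than in every AL mouse (218.3 to 228.9 CPM). The summed endothelial markers averaged 522.5 CPM on KD and 546.8 CPM on AL, but 1 gene, Slc2a1, makes up 27.3% of that sum, and its own mean difference (-33.8 CPM) was larger than that of the whole sum, so the other endothelial markers together were not lower on KD. Of 20 endothelial markers, 0 were higher and 2 lower at an unadjusted p under 0.05 (2.43% and 2.47% of all genes), with a median log2 fold change of 0.03, and the lower ones were Slc2a1 and Mfsd2a, the lipid transporter of the blood-brain barrier. Mfsd2a was at 9.85 to 11 CPM on KD and 11.4 to 13.3 CPM on AL, without overlap (log2 fold change -0.24). Pericyte and smooth muscle markers had a median of -0.06, with 11 of 13 negative, 1 lower and 0 higher at an unadjusted p under 0.05. The part of residual blood in these values was not tested.

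**Figure D4:**
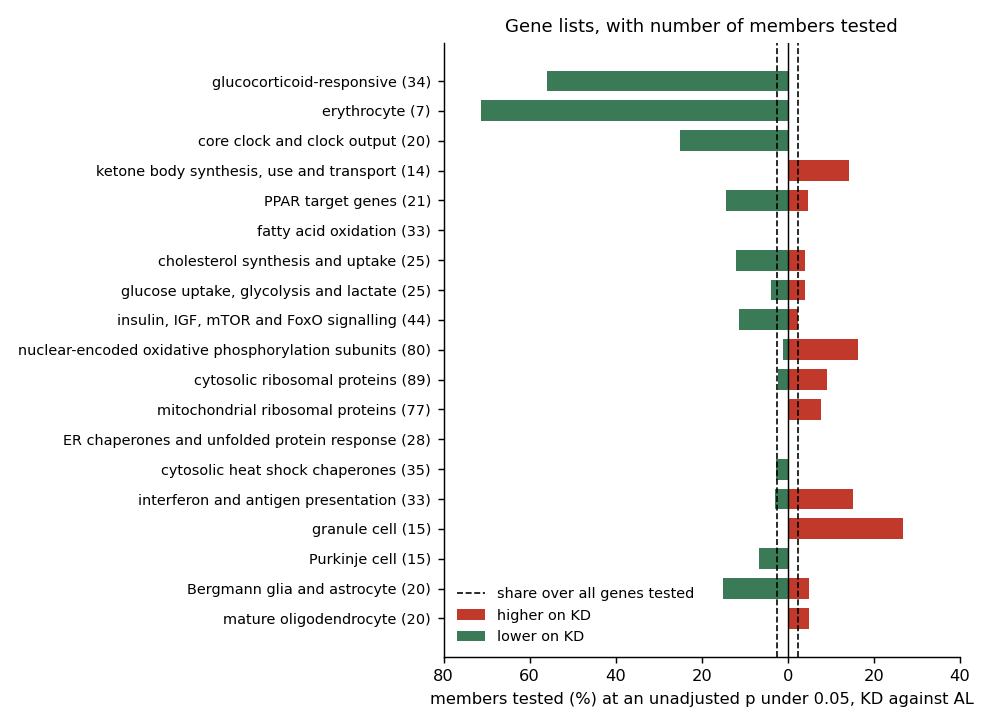
Share of tested members of 19 gene lists (number in brackets) at an unadjusted p under 0.05 in KD against AL, lower on KD to the left (green) and higher to the right (red), in percent; dashed lines mark the same shares over all 19036 genes (2.47% lower, 2.43% higher). Glucocorticoid-responsive (55.9% lower) and erythrocyte genes (71.4% lower) extend furthest left, and fatty acid oxidation and ER chaperones have no bar.

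Subunits of the respiratory chain leaned slightly to the high side. Of 80 nuclear-encoded subunits tested, 0 passed the adjusted test, 13 (16.2%) were higher and 1 lower at an unadjusted p under 0.05 (2.43% and 2.47% of all genes), and 74 had a positive fold change (50.2% of all genes did), with a median log2 fold change of 0.08. Atp5e, a small subunit of ATP synthase, was at 92.7, 88.1, 87.1 and 89.9 CPM on KD and at 76.3, 78.7, 75.6 and 85.7 CPM on AL, without overlap (log2 fold change 0.18, adjusted p = 0.67 by edgeR). Ndufa4, a subunit of cytochrome oxidase, was at 209.8 to 233.9 CPM on KD and 183.5 to 207 CPM on AL (log2 fold change 0.14), without overlap. The 4 most abundant subunits per kilobase, Atp5b, Atp5a1, Cox6a1 and Cox6b1, had log2 fold changes of 0.08, 0.04, 0.27 and 0.10. Averaged over the 80 genes, AL replicate 3 was the lowest of the 8 mice at -0.13 against the AL mean and KD replicate 4 the highest at 0.18, while the other 6 lay between 0.004 and 0.095. The count of 13 depended on single libraries: it was 2 without KD replicate 4, 7 without AL replicate 3, 8 without KD replicate 1 and 22 without AL replicate 4. With all libraries and no filter on low genes it was 21. The median was 0.04 without KD replicate 4 and without AL replicate 3. The 13 mRNAs encoded by the mitochondrial genome had a median of 0.03 with 0 members at an unadjusted p under 0.05.

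Of 89 cytosolic ribosomal protein genes, 8 (8.99%) were higher and 2 (2.25%) lower at an unadjusted p under 0.05, against 2.43% and 2.47% of all genes (median log2 fold change 0.05, 70 positive). Of 77 mitochondrial ones 6 (7.79%) were higher and 0 lower (median 0.05, 58 positive). The most abundant per kilobase, Rplp1, had a log2 fold change of 0.10. In both groups AL replicate 3 was the lowest of the 8 mice, at -0.12 and -0.13 against the AL mean.

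Of 20 genes of the circadian clock tested, 5 (25%) were lower and 0 higher at an unadjusted p under 0.05 (2.47% and 2.43% of all genes), and none passed the adjusted test. Nr1d1, the REV-ERB alpha repressor, was at 109, 127, 99.6 and 84.5 CPM on KD and at 117, 156, 145 and 113 CPM on AL, where KD replicate 2 overlapped with AL mice (log2 fold change -0.34, adjusted p = 0.959 by edgeR). Nr1d2, its paralog, was at 209, 209.8, 214.5 and 178 CPM on KD and at 220.1, 247, 227 and 218 CPM on AL, without overlap (log2 fold change -0.17). Tef, Dbp and Ciart, clock output and repressor genes, had log2 fold changes of -0.21, -0.35 and -0.43 with overlap, and without AL replicate 2 that of Ciart was -0.25 (unadjusted p = 0.166). Per1, a clock gene also induced by glucocorticoids, had a log2 fold change of -0.15 (unadjusted p = 0.158). The count of lower members ran from 2 to 8 when libraries were left out in turn, and was 2 with DESeq2 and with all 12 libraries in 1 fit. These transcripts cycle over the day, and with the dissection time of KD mice not given, diet and time of day cannot be told apart.

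Of 25 genes of cholesterol synthesis and uptake, 3 enzymes were lower (Hmgcs1, Idi1 and Msmo1, log2 fold changes -0.11, -0.17 and -0.17) and 1 member was higher at an unadjusted p under 0.05 (2.47% and 2.43% of all genes), with a median of -0.02. Msmo1 was at 17.1 to 18.4 CPM on KD and 18.6 to 21 CPM on AL, without overlap. DR against AL called 6 members of this list, all lower on DR (1.75% of all genes), and KD against DR called 6, all higher on KD (2.46% of all genes). Elovl2, which elongates polyunsaturated fatty acids, was the member of fatty acid synthesis and desaturation at an unadjusted p under 0.05, with a log2 fold change of -0.14 and no overlap.

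Protein folding genes lay between the levels of AL and DR on KD for the mean of the list, and the comparison with AL depended on AL replicate 3. Of 28 ER chaperones and unfolded protein response genes, 0 reached an unadjusted p under 0.05 on KD against AL, 26 had a negative fold change and the median was -0.04. DR against AL called 14 of them lower (1.75% of all genes), and KD against DR called 12 higher on KD (2.46% of all genes). Averaged over the 28 genes, AL replicate 3 was the lowest of the 8 mice, at -0.15 against the AL mean, and KD mice lay at -0.09 to -0.01. Hspa5, the ER chaperone BiP, was at 409, 423, 444 and 363 CPM on KD and at 478, 494, 365 and 454 CPM on AL, with overlap (log2 fold change -0.13, 95% interval -0.29 to 0.04, exact permutation p = 0.286). The log2 fold change was -0.08 without AL replicate 2 (unadjusted p = 0.344) and without KD replicate 4 (unadjusted p = 0.349). Without AL replicate 3 its log2 fold change was -0.21 (unadjusted p = 0.00135, adjusted p = 0.562 by edgeR). On DR it was at 305, 316, 285 and 315 CPM, below all mice of both other diets (KD against DR log2 fold change 0.42, adjusted p = 0.00047 by edgeR). Of cytosolic heat shock chaperones, 0 of 35 were higher and 1 lower at an unadjusted p under 0.05 on KD against AL (2.43% and 2.47% of all genes; median -0.01), 12 were called lower on DR against AL, and 16 were called higher on KD against DR. The 1 lower gene was Hspa1a, an inducible HSP70, with a log2 fold change of -0.35 and overlap between diets. Without AL replicate 3 it was called, with a log2 fold change of -0.53 (adjusted p = 0.0403 by edgeR). Cirbp, the cold-inducible RNA-binding protein, was at 79.3, 80.8, 65.9 and 73.8 CPM on KD and at 61.2, 70, 83 and 61.3 CPM on AL, with overlap (exact permutation p = 0.314), while DR mice stood at 96.1 to 109.7 CPM, above all others (KD against DR log2 fold change -0.45, adjusted p = 0.00056 by edgeR). The log2 fold change of Cirbp on KD against AL, 0.12, was 0.23 without AL replicate 3 (unadjusted p = 0.00422) and 0.07 without AL replicate 1 and without AL replicate 4.

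Neuronal genes differed by small amounts. Among 15 granule cell markers, 4 (Cbln1, Slc17a7, Zic1 and Zic2; 26.7%, against 2.43% of all genes) were higher at an unadjusted p under 0.05 by log2 fold changes of 0.08 to 0.10, and the median of the list was 0.06. The 2 larger granule cell lists of the study, drawn from single-cell atlases, did not show this: that of Rosenberg had 0 of 47 members higher and 1 lower (median 0.00, 23 positive), and that of Kozareva 1 of 41 higher (2.44%) and 0 lower (median 0.02). Cbln1, the synapse organizer that granule cells secrete, was at 667, 657, 664 and 654 CPM on KD and at 647, 604, 632 and 620.4 CPM on AL, without overlap. The median of the 15 Purkinje cell markers was -0.02 on KD against AL, with 0 called, against -0.15 and 4 called lower on DR against AL, where 1.75% of all genes were called lower. On KD against AL 12 of the 15 had a negative fold change, while 50.2% of all genes had a positive one. In the Purkinje cell lists of the study, 40 of 49 members of that of Rosenberg were negative (median -0.04), and 232 of 401 of that of Kozareva (median -0.01). Calb1, a calcium buffer of Purkinje cells, was at 502 to 517 CPM on KD and 514 to 541 CPM on AL, with overlap (log2 fold change -0.06).

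Receptors and channels that have been linked to the action of ketogenic diets on excitability had list medians close to 0. Of 14 genes of adenosine handling and receptors, Slc29a2, a nucleoside transporter, was higher at an unadjusted p under 0.05 (log2 fold change 0.16), while Adora1, the inhibitory A1 receptor, had a log2 fold change of -0.03. Of 73 potassium channel genes including the ATP-sensitive ones, 2 (2.74%) were higher and 4 (5.48%) lower at an unadjusted p under 0.05, against 2.43% and 2.47% of all genes (median -0.01, range -0.53 to 0.47), among the higher ones Kcnj11, the pore of the ATP-sensitive channel, at 0.10. Among 23 genes of GABA and glutamate metabolism and uptake, 1 was higher and 1 lower, with a median of -0.02. AMPA, kainate and delta glutamate receptors had a median of -0.05 over 25 genes (range -0.41 to 0.19), with 20 negative and 1 higher and 1 lower at an unadjusted p under 0.05, and GABA receptors of -0.02 over 16 genes with 0 at an unadjusted p under 0.05.

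Glial and immune lists held members in both directions, none of which passed the adjusted test. Bergmann glia and astrocyte markers (20 genes) had 1 higher (5%) and 3 lower (15%) at an unadjusted p under 0.05, against 2.43% and 2.47% of all genes, with a median of -0.03, and mature oligodendrocyte markers (20 genes) 1 higher with a median of 0.06. Microglial markers (18 genes) had 2 higher, Cx3cr1 and Aif1 (log2 fold changes 0.22 and 0.67), with a median of 0.04 and overlap between diets. Of 33 genes of the interferon response and antigen presentation, 5 (15.2%: Ifi27, Rtp4, Tap1, Oasl2 and H2-Q4) were higher and 1 (Cd74) was lower at an unadjusted p under 0.05, with a median of 0.11. All of these but Ifi27 were below 4 CPM in every KD and AL mouse. Of 44 genes of insulin, IGF, mTOR and FoxO signalling, 1 (2.27%, Igfbp3) was higher and 5 (11.4%) lower at an unadjusted p under 0.05. Over all genes these shares were 2.43% and 2.47%. Bcl6, which is also in the glucocorticoid-responsive list, Foxo1, Ccng2, Irs2 and Pik3r1 were lower, with log2 fold changes of -0.32 to -0.10. Without AL replicate 2 that of Bcl6 was -0.09 (unadjusted p = 0.209), against -0.17 with all libraries. Of 11 choroid plexus and ependyma markers tested, 1 (9.09%) was higher and 2 (18.2%) lower at an unadjusted p under 0.05. The shares over all genes were 2.43% and 2.47%, and the median of the list was 0.07. Among these markers Ttr, transthyretin, was at 7.95, 0.371, 2.13 and 3.19 CPM on KD and at 0.468, 0.361, 1.43 and 0.761 CPM on AL, so that KD replicate 2 lay at the low end of AL. Otx2 and Clic6, further markers of that tissue, had log2 fold changes of -0.23 and -0.20, opposite in sign to Ttr.

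Beyond these groups, the 12 genes with the lowest p in each direction and an average of 1 CPM or more were examined, none of which passed the adjusted test. The higher ones without values so far included Stra6, Cxcl12, Sema7a (a semaphorin), Tfrc, Tnfsf10 (the death ligand TRAIL), Lekr1 and Cgnl1 (a junction protein), beside Slc16a1, Atp5e and Col6a3, which averaged 10.5 ± 8.11 CPM on KD and 1.38 ± 1 CPM on AL (SD, n = 4 each) with overlap (adjusted p = 0.316 by edgeR). Stra6, a receptor for retinol-binding protein, was at 4.16, 4.02, 3.47 and 4.74 CPM on KD, at 3.18, 2.04, 1.89 and 1.74 CPM on AL and at 1.56 to 3.13 CPM on DR, with all KD mice above all others (KD against AL log2 fold change 0.87, adjusted p = 0.316, and KD against DR 0.86, adjusted p = 0.0097, both by edgeR). Cxcl12, a chemokine, was at 66.8, 69.9, 74.8 and 77.8 CPM on KD and at 59.3, 53.2, 52.1 and 67.3 CPM on AL, where AL replicate 4 exceeded KD replicate 1 (log2 fold change 0.32, adjusted p = 0.564 by edgeR). On DR it was at 36.3 to 50.1 CPM, below every KD and AL mouse. Tfrc, the transferrin receptor, was at 93.1 to 98.4 CPM on KD and 86.0 to 89.0 CPM on AL without overlap (log2 fold change 0.15).

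The lower ones without values so far were Klhl2, Ahnak, Jcad and Ptgfrn. Klhl2, an adaptor of a ubiquitin ligase, was at 50.6, 49.8, 48.7 and 52.3 CPM on KD and at 61.6, 58.4, 61.5 and 56.7 CPM on AL (log2 fold change -0.24, standard error 0.04, adjusted p = 0.261 by edgeR). Ahnak, a large scaffold protein gene, was at 60.1 to 71.3 CPM on KD and 77.4 to 89.7 CPM on AL (log2 fold change -0.32). Jcad, a junction protein gene of endothelium, was at 50.9 to 60.6 CPM on KD and 63.9 to 71.3 CPM on AL (log2 fold change -0.26), and Ptgfrn had a log2 fold change of -0.41. For all 4 the diets did not overlap. Every KD mouse lay below every AL mouse for 1.55% of all genes tested.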

How the data were processed

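Poly(A) RNA of 12 cerebellar cortex samples was sequenced after TruSeq V2 library preparation, which does not mark strand. The authors deposited raw counts per gene for GRCm38.p6 with GENCODE annotation, and their processing notes name Trimmomatic 0.39, STAR 2.7.0f, featureCounts, Subread 1.6.4 and edgeR 3.32.1. The table holds 54752 genes, of which 54723 have a symbol.

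From these deposited counts, KD was compared with AL in edgeR 4.0.16 (R 4.3.3) with 4 mice a diet: filterByExpr removed low genes (at its limits of 10 counts in a library and 15 in total), TMM set the scaling, and the quasi-likelihood F test gave p-values that were adjusted after Benjamini and Hochberg over every gene left, with a threshold of 0.05. DR against AL and KD against DR were fitted likewise, each on its own 8 libraries. The script was tested on simulated data. Single values were compared by exact two-sided permutation over 70 divisions of the 8 mice. Components were computed on log2 CPM with a prior count of 2, and list levels by mouse on log2 of CPM plus 0.1. Groups came from the diet in the labels. Replicate numbers follow deposition order and pair nothing, and no pair of libraries of a diet agreed within counting error. Whether samples came from separate litters or cages is not given, so p-values measure the spread between these samples.

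The 59 gene lists, and 9 cell lists from the study's supplement, were chosen with earlier results of these data known. Named genes were the 12 with the lowest p in each direction with a mean of at least 1 CPM, preset genes and list members. The preset genes were ketone and fuel genes together with Fkbp5, Cirbp, Hspa5, Pcp2 and Gabra6. List members at an unadjusted p under 0.05 were chosen after their values were seen. So were Rn7sk, CT010467.1, Col6a3, Mid1, Alb and further genes that vary between mice. Alternatives were other scalings, no filter, a minimum of 1 CPM, DESeq2 1.42.0, limma-voom (limma 3.58.1), the legacy quasi-likelihood fit, all 12 libraries in 1 fit and each library left out. Leaving out KD replicates 1 and 3 together was added after seeing the data. Promoter sequences come from RefSeq, build GRCm38.p6. Some genes that this rule names are not reported here.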

Additional observations from a re-analysis of the deposited data

Results flagged for a closer look

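In 170 groups of 4 mice, 1 mouse stood apart from the other 3 in 16 by Dixon's test at the 95% level. Chance flags about 1 in 20 groups, but many of these genes were examined because they vary between mice, so that rate is no measure for this count. KD replicate 4 had the highest Rn7sk (150.1 CPM), CT010467.1 (1494 CPM) and Lars2 (273.8 CPM) of its diet, and the lowest Nr1d2 (177.9 CPM). All ranks here are within a diet. KD replicate 3 had the lowest score on the first component (-19.68) and the highest Myh7, a muscle myosin (30.7 CPM), of the KD mice. KD replicate 1 had the highest Arrdc2 of its diet (8.936 CPM). Among the AL mice, replicate 3 had the highest Alb (10.24 CPM), Apob (3.013 CPM), Fgb (2.382 CPM) and Gm26917 (31.54 CPM). Among the same 4 mice, AL replicate 4 had the highest Col6a3 (2.884 CPM) and Lekr1 (5.831 CPM), AL replicate 2 the highest Mid1 (131.4 CPM) and Mid1-ps1 (28.1 CPM), and AL replicate 1 stood apart in Sult1a1 (20.63 CPM). The causes were not tested.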

How the results depend on the processing

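The count of 0 genes between KD and AL held with library size, RLE or upper quartile scaling, a minimum of 1 CPM, limma-voom, the legacy quasi-likelihood fit, all 12 libraries in 1 fit and KD replicates 1 and 3 both left out. It became 10 with DESeq2 and 19 with no filter (5 higher, 14 lower, 1613 at an unadjusted p under 0.05), and 0 to 6 with each library left out: 6 without AL replicate 1, 2 without AL replicate 3 and 5 without AL replicate 4. Called members of the gene lists numbered 5 with DESeq2, 14 with no filter and 0 to 5 with each library left out. Cxcl12, Hbb-bt, Map3k6 and Stra6 were each called in 3 of these settings. The cause was not tested. The log2 fold change of Slc16a7, -0.00032, turned positive with RLE (0.00071), upper quartile (0.0023), no filter (0.0013), DESeq2 (0.00032) and limma-voom (7.623e-07), and ran from -0.034 to 0.029 with each library left out. That of Slc2a3 ran from -0.031 to 0.0014. The first component did not separate the diets in any setting tried, while the second did without AL replicate 4 and the third without AL replicate 2. No paired analysis was possible because the labels carry no replicate numbers. With 4 mice a diet the intervals limit what could be seen, and genes under 1 CPM are the least certain.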

Other observations

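Some values belong to no comparison of diets. Apob, the apolipoprotein of liver and gut lipoproteins, was at 1.69, 2.48, 0 and 2.03 CPM in KD replicates 1 to 4 and at 0, 0, 3.01 and 0 CPM in AL replicates 1 to 4, high in the same mice as Alb. Fgb, a fibrinogen chain, was at 1.04, 1.68, 0 and 0.309 CPM on KD and at 0, 0, 2.38 and 0 CPM on AL. Mid1-ps1, a pseudogene whose sequence resembles Mid1, was at 28.2, 7.42, 31.5 and 3.66 CPM on KD and at 4.34, 28.1, 5.17 and 2.38 CPM on AL, high in the same mice as Mid1. Among 15 markers of dividing cells and granule precursors, 12 were tested and 0 reached an unadjusted p under 0.05. Of 55 DNA repair genes and 18 genes of mitochondrial biogenesis and uncoupling, 0 did so as well. Of the 9 cell lists from the study's supplement, which it drew from single-cell atlases, the astrocyte list of Kozareva had 10 of 353 tested members higher and 32 lower (9.07%, against 2.47% of all genes), and the Bergmann glia list of the same source 2 of 152 higher and 11 lower (7.24%). The other 7 lists had 0% to 4.08% of their members lower and 0% to 5.42% higher at an unadjusted p under 0.05, and all 9 medians lay between -0.04 and 0.02.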
